A study of Mus musculus with 15 samples.

Results

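The regions described here are H3K4me2 peaks of Lgr5+ intestinal stem cells (ISC) that all 4 lists of crypt progenitors also held and that the lists of both mature villus cell types, goblet cells (GOB) and enterocytes (ENT), did not. They are called crypt-only regions below. The members were chosen by measured H3K4me2 peak calls alone, with an overlap of 1 bp or more taken as presence in a list. The rule was met by 2267 of 68407 ISC peaks, or 3.31% of them. H3K4me2 was mapped in cells of C57BL/6 mice. ISC were sorted for green fluorescent protein from Lgr5-eGFP-Cre mice. Secretory progenitors (Sec-Pro) came from crypts with Rbpj deleted in 1 library and, in the other, after treatment with the Notch inhibitor dibenzazepine (DBZ). Enterocyte progenitors (Ent-Pro, replicates 1 and 2) came from crypts of Atoh1-/- mice. GOB came from villi of Rbpj-/- mice and ENT from villi of Atoh1-/- mice. H3K27ac and DNase I hypersensitive sites (DHS) were mapped in 1 library each of Sec-Pro and Ent-Pro, and ATOH1 in 1 Sec-Pro library through a FLAG antibody. Whether Rbpj-deleted or DBZ-treated crypts were used in the Sec-Pro libraries of these assays, what drove or timed the deletions, and whether animals were pooled are left unstated by the labels. No sort is given for the progenitors and the mature cells, so the share of other cells in them is unknown. ISC, GOB and ENT had 1 H3K4me2 library each. No test between stem and mature cells could therefore be made, and maturity cannot be told apart from genotype, tissue preparation or library.

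H3K4me2 lies at promoters and enhancers, both active ones and ones that are held ready for use. H3K27ac is added where such elements are active, and a DHS marks the stretch from which regulatory proteins have displaced the nucleosomes. In the intestine, stem cells at the crypt base give rise to progenitors that choose between a secretory and an absorptive fate through Notch-mediated lateral inhibition. ATOH1 is the transcription factor that the secretory fate requires. Progenitors then leave the crypt and mature on the villus, where the stem cell and proliferation programmes are shut down. The study mapped these features to ask how chromatin relates to that choice. The crypt-only regions address the other direction of change, the sites whose mark was called throughout the crypt lists and in neither mature list.

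The 7 H3K4me2 lists held from 63293 to 92279 peaks, and those of GOB (86922) and ENT (88489) were longer than the ISC list. Read depth is not stated for any of them. A peak missing from a list is thus a missing call, and weak signal below the caller's threshold may remain there. Each peak carries a score of the authors' that was used only as a rank, given as a percentile within its own list, where 100 is the highest score. Brackets give 95% intervals, which are Wilson intervals for shares and Newcombe intervals for differences, and cover counting error over sites, not variation between animals. Where a share is 0, the share that 3 counts of the total would give is stated as what the count allows, with the Wilson upper limit beside it.

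Most of what the crypt lists shared was still marked in mature cells. Of 55972 ISC peaks found in all 4 progenitor lists, 2267 were crypt-only, which is 4.05%. A further 3593 (6.42%) were kept in ENT alone, 684 (1.22%) in GOB alone and 49428 (88.3%) in both. These 3 classes are the sets against which the crypt-only regions are compared. On single chromosomes the crypt-only share of ISC peaks ran from 2.25% [1.76 to 2.87] on chromosome 15 to 4.97% [4.16 to 5.93] on chromosome 18 among chromosomes other than Y, which held 6 ISC peaks.

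The boundary set by the rule was narrow. Within 10 bp of a GOB or ENT peak lay 85 crypt-only regions, and 96 ISC peaks were left out for an overlap of at most 10 bp. Directly adjoining a mature peak, in each case an ENT peak, were 6 crypt-only regions, and the closest GOB peak to any crypt-only region was 1 bp away. Of the 6, 3 lay on chromosome 10 at 79711499 to 79711696, on chromosome 13 at 23610180 to 23610449 and at 23814792 to 23814946 on chromosome 17. Their ISC score percentiles were 20.5, 49.2 and 36.0. The 3 peaks left out by the smallest overlap, 1 bp each, lay on chromosome 1 at 162239658 to 162239951, on chromosome 10 at 51749419 to 51749596 and at 11274713 to 11274895 on chromosome 12. Their ISC percentiles were 62.1, 52.8 and 25.4. All positions are 1-based in mm9, the build named in the submitters' processing notes. No genome or gene annotation of mm9 was at hand, so regions are named by position, genes are not assigned, and whether a region lies in a promoter, exon, intron or UTR is not stated.

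Crypt-only regions were short and of low rank in the ISC list, which helped choose them and is given as a description. Their width ran from 146 to 2167 bp with a median of 233 bp, against medians of 259 bp for peaks kept in ENT alone, 257.5 bp for those kept in GOB alone and 452 bp for those kept in both. Of the crypt-only regions, 37.0% [35.0 to 39.0] were under 200 bp and 8.95% [7.85 to 10.2] reached 500 bp. Of peaks kept in both, 13.9% [13.6 to 14.2] were under 200 bp and 45.2% [44.8 to 45.6] reached 500 bp. The median ISC score percentile was 33.2 for crypt-only regions, 36.0 for each class kept in 1 mature cell type and 61.8 for peaks kept in both. Among crypt-only regions 593 (26.2%) stood in the upper 50% of the ISC list by score and 7 in the upper 10%. The crypt-only regions thus resembled the classes kept in 1 mature cell type in these measures more than the class kept in both.

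**Figure D1:**
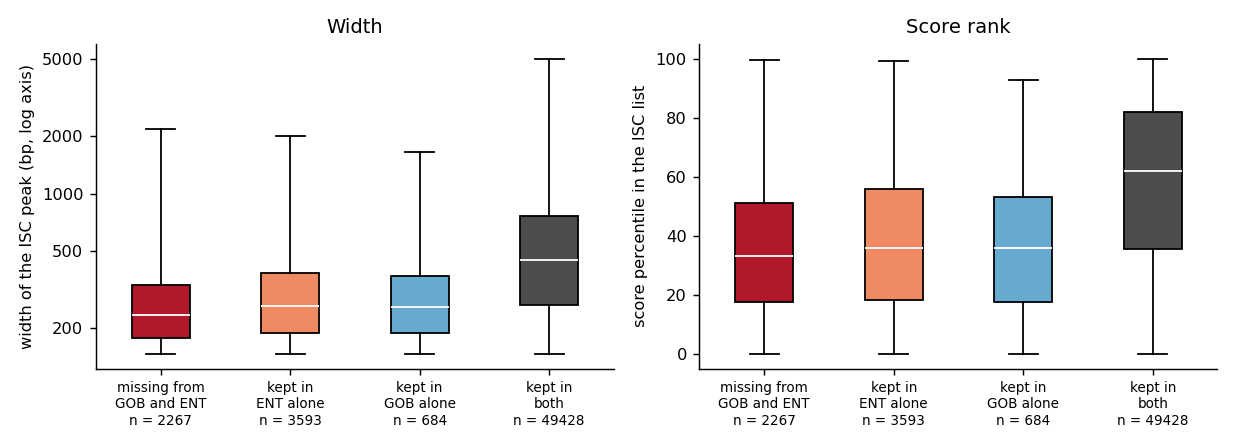
Width of the ISC peak (bp, log axis, left) and its score percentile within the ISC list (right) for crypt-only regions and for ISC peaks kept in ENT alone, GOB alone or both. Boxes span the quartiles with the median as a white line and whiskers reach the lowest and highest value; the median width is 233 bp for crypt-only regions and 452 bp for peaks kept in both.

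Within each progenitor list the peaks over crypt-only regions had a lower median rank than those over peaks kept in both mature lists. The median score percentile of the progenitor peak over a crypt-only region was 45.5 in Rbpj-deleted Sec-Pro, 67.7 in DBZ-treated Sec-Pro, 65.6 in Ent-Pro replicate 1 and 47.4 in Ent-Pro replicate 2. For peaks kept in both mature lists the medians were 77.1, 84.1, 84.2 and 77.5 in the same order. For peaks kept in GOB alone they were 42.9, 69.0, 65.7 and 45.0. The crypt-only medians were above these in Rbpj-deleted Sec-Pro and Ent-Pro replicate 2. For peaks kept in ENT alone they were 52.5, 70.4, 68.1 and 56.0, each above the crypt-only median. The progenitor peaks were also wider than the ISC peak they covered. Their median width over crypt-only regions was 653 bp for Rbpj-deleted and 1195 bp for DBZ-treated Sec-Pro, and 1188 and 747 bp for Ent-Pro replicates 1 and 2, whereas over peaks kept in both it was 1333, 1571, 1660 and 1325 bp. Ranks are comparable between classes within a list, and not between lists, whose lengths differ.

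A few crypt-only regions ranked high in the ISC list and were overlapped by peaks of high rank in every progenitor list. A progenitor percentile is that of the whole overlapping peak, which can extend well past the region. It therefore need not reflect the signal at the region itself. Ranked by the lowest of the 5 percentiles, the first lay on chromosome 3 at 58224245 to 58224611, with percentiles of 92.6 in ISC, 93.4 in Rbpj-deleted Sec-Pro, 99.8 in DBZ-treated Sec-Pro, 94.5 in Ent-Pro replicate 1 and 95.2 in Ent-Pro replicate 2. The nearest GOB peak was 2590 bp away and the nearest ENT peak 1238 bp away, and the other marks there amounted to a weak Ent-Pro H3K27ac peak (percentile 19.9). It stood apart among the 8 regions of highest rank, since each of the others had a mature peak 49 to 204 bp away. The second lay on chromosome 11 at 83667410 to 83667901 (lowest percentile 88.8), with a GOB peak 54 bp and an ENT peak 69 bp away. It was overlapped by H3K27ac peaks of high rank in Sec-Pro (percentile 97.6) and Ent-Pro (93.2). The third, on chromosome 10 at 110358312 to 110358652, and the eighth, on chromosome 1 at 193217836 to 193218245, had H3K27ac in Ent-Pro alone (percentiles 88.2 and 99.1). The fourth, on chromosome 12 at 109793961 to 109794634, and the fifth, on chromosome 8 at 74683704 to 74683902, had no H3K27ac in either progenitor. The sixth, on chromosome 18 at 36962008 to 36962475, had it in both, at percentiles of 38.3 in Sec-Pro and 57.0 in Ent-Pro. The seventh, on chromosome 1 at 163805125 to 163805483, had it in Sec-Pro alone (percentile 90.6). None of these 8 overlapped a DHS or an ATOH1 peak, and the nearest DHS lay between 194 and 3174 bp away.

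H3K27ac, which the rule did not use, was found at most crypt-only regions, less often than at peaks kept in both or in ENT alone. Sec-Pro H3K27ac overlapped 1272 crypt-only regions, 56.1% [54.1 to 58.1], where 71.6% of all ISC peaks were overlapped. Ent-Pro H3K27ac overlapped 1457, 64.3% [62.3 to 66.2], where the share of all ISC peaks was 77%. Against peaks kept in both, with 80.4% in Sec-Pro and 84.9% in Ent-Pro, the differences were -24.3 points [-26.4 to -22.3] and -20.7 points [-22.7 to -18.7], both larger than counting error. The difference to peaks kept in ENT alone was -13.5 points [-16.0 to -11.0] in Sec-Pro and -12.9 points [-15.3 to -10.5] in Ent-Pro. Against peaks kept in GOB alone it was 4.36 points [0.103 to 8.61] in Sec-Pro and 3.31 points [-0.798 to 7.49] in Ent-Pro, and the Ent-Pro interval includes 0. H3K27ac in either progenitor was found at 1562 crypt-only regions (68.9% [66.97 to 70.8], against 79.4% of all ISC peaks), with a difference to peaks kept in both of -17.6 points. This difference was -7.05 points when an H3K27ac peak within 500 bp was counted.

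Both progenitors carried H3K27ac at 1167 crypt-only regions (51.5% [49.4 to 53.5], against 69.1% of all ISC peaks), and neither did at 705 (31.1% [29.2 to 33.0], against 20.6%). Sec-Pro alone had it at 105 and Ent-Pro alone at 290. Sec-Pro minus Ent-Pro was thus -8.16 points at crypt-only regions, beside -7.51 points at peaks kept in ENT alone, -9.21 points at those kept in GOB alone, -4.48 points at those kept in both and -5.38 points over all ISC peaks. The sign was the same in each class. With 1 H3K27ac library per progenitor it could not be tested. Where an H3K27ac peak was present it usually covered the whole region, with a median of 100% of the region's length in each progenitor. The median was also 100% over all ISC peaks, so this was not particular to crypt-only regions. The lower quartile was 62.0% in Sec-Pro and 69.8% in Ent-Pro, against 73.4% and 83.1% at peaks kept in both. The median percentile of the H3K27ac peak at crypt-only regions was 63.4 in Sec-Pro and 63.6 in Ent-Pro. It was 62.8 and 66.4 at peaks kept in GOB alone and 70.3 and 69.5 at those kept in ENT alone. At peaks kept in both it was 85.3 and 85.5.

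The 5 regions overlapped by the H3K27ac peaks of highest rank in both progenitors lay close to mature H3K4me2, as did most crypt-only regions. On chromosome 9 at 44414394 to 44414946 the H3K27ac percentiles were 99.99 in Sec-Pro and 99.93 in Ent-Pro, with a GOB peak 145 bp and an ENT peak 97 bp away. The next were on chromosome 6 at 99469124 to 99469582, on chromosome 11 at 84685341 to 84685646, on chromosome 7 at 80700816 to 80701839 and at 83181724 to 83181950 on chromosome 15, each with H3K27ac percentiles of at least 99.5 in both progenitors. Their ISC percentiles were 12.9, 23.8, 83.6 and 44.6, so H3K27ac peaks of high rank overlapped ISC peaks of low as well as high rank. The H3K27ac rank is that of the whole peak, and where within it the signal was highest is not known. Each of the 5 had a GOB or ENT peak within 1 kb and a DHS within 1 kb but not in the region itself. Of all crypt-only regions, 72.1% had a GOB or ENT peak and 19.4% a DHS within that distance.

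**Figure D2:**
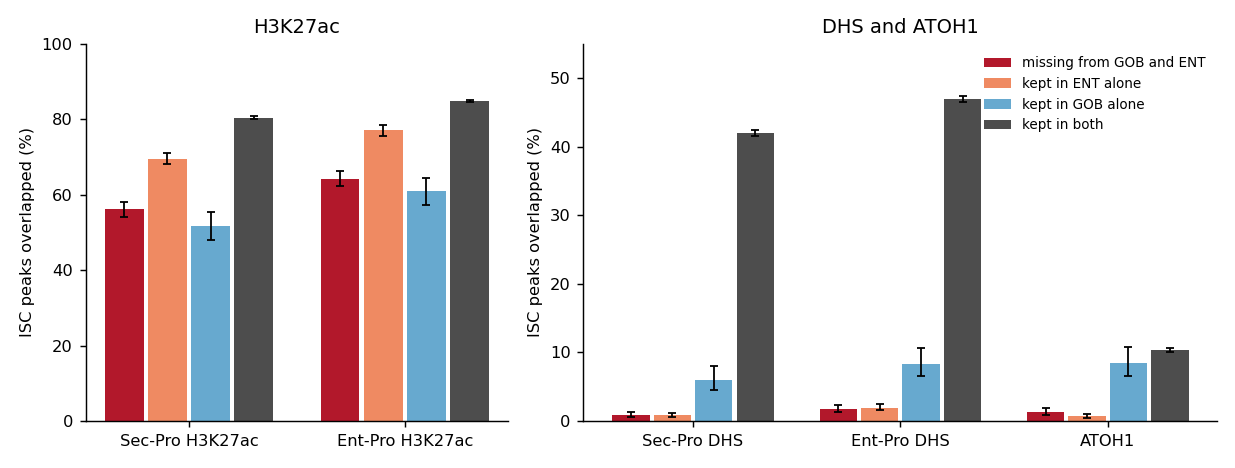
Percentage of ISC H3K4me2 peaks overlapped by H3K27ac (left) and by DHS or ATOH1 peaks (right) in each progenitor, for crypt-only regions and for peaks kept in ENT alone, GOB alone or both; error bars are Wilson 95% intervals over sites. H3K27ac was common in each class, whereas DHS covered 0.794% and 1.76% of crypt-only regions and over 40% of peaks kept in both.

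DHS peaks were rare at crypt-only regions. Sec-Pro DHS overlapped 18 of them, 0.794% [0.503 to 1.25], and Ent-Pro DHS 40, 1.76% [1.30 to 2.39], where 31.3% and 35.3% of all ISC peaks were overlapped. Peaks kept in both had shares of 42.0% [41.6 to 42.5] in Sec-Pro and 46.9% [46.5 to 47.4] in Ent-Pro, which put the differences at -41.2 points [-41.8 to -40.6] and -45.2 points [-45.8 to -44.4]. Peaks kept in ENT alone had shares of 0.835% in Sec-Pro and 1.95% in Ent-Pro, and the intervals of the differences to them included 0 (-0.0410 points [-0.500 to 0.480] and -0.184 points [-0.872 to 0.564]). Peaks kept in GOB alone had more, 5.99% and 8.33%, with differences of -5.20 points [-7.26 to -3.59] and -6.57 points [-8.93 to -4.62]. When at least 50% of a peak had to be covered, which also changes the classes, the difference in DHS of either progenitor to peaks kept in both was -14.6 points in place of -45.8 points. When mature coverage under 50% of the peak counted as missing, 4695 regions met the rule and 4.20% of them had a Sec-Pro DHS and 5.62% an Ent-Pro DHS. DHS shares were thus lowest in the crypt-only set and in the set kept in ENT alone. In the set kept in GOB alone they were also far below those of all ISC peaks.

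Of the 42 crypt-only regions with a DHS in either progenitor (1.85%, against 35.9% of all ISC peaks), 16 had it in both, 2 in Sec-Pro alone and 24 in Ent-Pro alone. The DHS there were of middling rank, with median percentiles of 44.5 in Sec-Pro and 44.1 in Ent-Pro, against 78.7 and 80.7 at peaks kept in both. An overlap could be as short as 1 bp, and DHS covered the centre of only 0.176% of crypt-only regions in Sec-Pro and 0.485% in Ent-Pro. Most of these overlaps thus did not reach the centre. The region with the strongest DHS in both progenitors lay on chromosome 9 at 51771855 to 51772012 (DHS percentiles 80.4 in Sec-Pro and 88.7 in Ent-Pro). It was 60 bp from a GOB peak and 116 bp from an ENT peak. Regions on chromosome 13 at 12350546 to 12350801 and at 97381117 to 97381266 on chromosome 8 overlapped a DHS in both progenitors without H3K27ac in either. The remaining pair lay on chromosome 7 at 114829708 to 114830155 and at 61264695 to 61265218 on chromosome 14. Both overlapped a DHS and an H3K27ac peak in each progenitor and an ATOH1 peak. Each of these 5 had a GOB and an ENT peak within 1 kb, while 72.1% of all crypt-only regions had a peak of GOB or ENT within that distance.

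DHS were also counted near the regions. Within 500 bp of the region a DHS of either progenitor lay at 9.31% [8.18 to 10.6] and within 1 kb at 19.4% [17.8 to 21.1], and the median distance to the nearest DHS was 6488 bp. For peaks kept in both, 62.0% [61.6 to 62.4] had a DHS within 500 bp and the median distance was 30 bp. Peaks kept in ENT alone, at 10.8% [9.85 to 11.9] within 500 bp and a median of 6498 bp, stood close to the crypt-only regions here too.

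ATOH1 binding was rare. An ATOH1 peak overlapped 29 crypt-only regions, 1.28% [0.892 to 1.83], where 8.41% of all ISC peaks were overlapped. The share was 10.4% [10.1 to 10.7] at peaks kept in both, 8.48% [6.62 to 10.8] at those kept in GOB alone and 0.696% [0.472 to 1.03] at those kept in ENT alone. The crypt-only share differed by -9.10 points [-9.58 to -8.49] from peaks kept in both, by -7.20 points [-9.56 to -5.26] from those kept in GOB alone and by 0.583 points [0.0752 to 1.18] from those kept in ENT alone. With at least 50% of the peak to be covered, ATOH1 was found at 0 of 1613 regions, which allows up to 0.186% (Wilson limit 0.238%), and the difference to peaks kept in both was -1.90 points. A DHS of either progenitor accompanied ATOH1 at 4 crypt-only regions (0.176% [0.0686 to 0.453]), against 5.64% of all ISC peaks.

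The region with the highest ATOH1 score lay on chromosome 1 at 170219679 to 170219924, with an ATOH1 percentile of 99.5, a GOB peak 88 bp and an ENT peak 408 bp away, no H3K27ac in either progenitor and the nearest DHS 19268 bp away. The second, on chromosome 8 at 70892371 to 70892629 (ATOH1 percentile 97.3), also lacked H3K27ac and DHS, and its nearest mature peak, in ENT, was 24023 bp away. The third, on chromosome 17 at 34713398 to 34713569 (ATOH1 percentile 97.0), had H3K27ac in both progenitors and a DHS 15 bp outside its edge. The fourth, on chromosome 10 at 58732728 to 58733480, and the fifth, on chromosome 17 at 16142023 to 16142529, carried H3K27ac in both progenitors with the nearest DHS 20850 and 18704 bp away. None of these 5 regions overlapped a DHS of either progenitor.

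Combined over the 5 lists, H3K27ac in both progenitors with neither DHS nor ATOH1 was the most common state of crypt-only regions, with 1135 regions (50.1%). No peak of any of these lists was found at 684 (30.2% [28.3 to 32.1]), against 29.4% [26.1 to 32.9] of peaks kept in GOB alone, 19.2% [17.9 to 20.5] of those kept in ENT alone, 6.17% [5.96 to 6.39] of those kept in both and 14.4% of all ISC peaks. H3K27ac in Ent-Pro alone without DHS or ATOH1 followed with 281 and in Sec-Pro alone with 100, and each of the remaining combinations held at most 13 regions. H3K27ac in either progenitor without a DHS in either occurred at 67.6% [65.6 to 69.5] of crypt-only regions, at 78.6% [77.2 to 79.9] of peaks kept in ENT alone, at 60.4% [56.7 to 64.0] of those kept in GOB alone and at 45.9% [45.5 to 46.4] of those kept in both.

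Since crypt-only regions were shorter and of lower rank than kept peaks, shares were also set side by side within 5 bins of the ISC list with about equal numbers of peaks, numbered from the lowest (bin 1) to the highest (bin 5). In bin 1 by score a DHS of either progenitor was found at 1.63% [0.934 to 2.82] of crypt-only regions and at 26.9% [25.8 to 28.0] of peaks kept in both. In bin 4 it was found at 0.699% [0.192 to 2.51] of 286 crypt-only regions and at 50.8% [50.0 to 51.7] of kept peaks. Bin 5 held 44 crypt-only regions with 0 DHS, which allows a share of up to 6.82% (Wilson limit 8.03%), while 72.7% [72.0 to 73.5] of kept peaks had one. The share with a DHS was thus larger in each higher bin of kept peaks and at most 2.70% in any bin of crypt-only regions. H3K27ac in either progenitor was found at 66.5% [63.0 to 69.8] of crypt-only regions in bin 1 and at 84.1% [70.6 to 92.1] in bin 5, against 80.4% [79.5 to 81.4] and 93.8% [93.4 to 94.2] of kept peaks. Bins by width gave the same direction in each bin for H3K27ac, DHS and ATOH1. The bins use the ISC list alone, so the rank of the progenitor peaks over the regions was not matched. In the widest bin, DHS covered 0 of 54 crypt-only regions, which allows up to 5.56% (Wilson limit 6.64%), and 69.2% [68.4 to 70.0] of kept peaks.

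**Figure D3:**
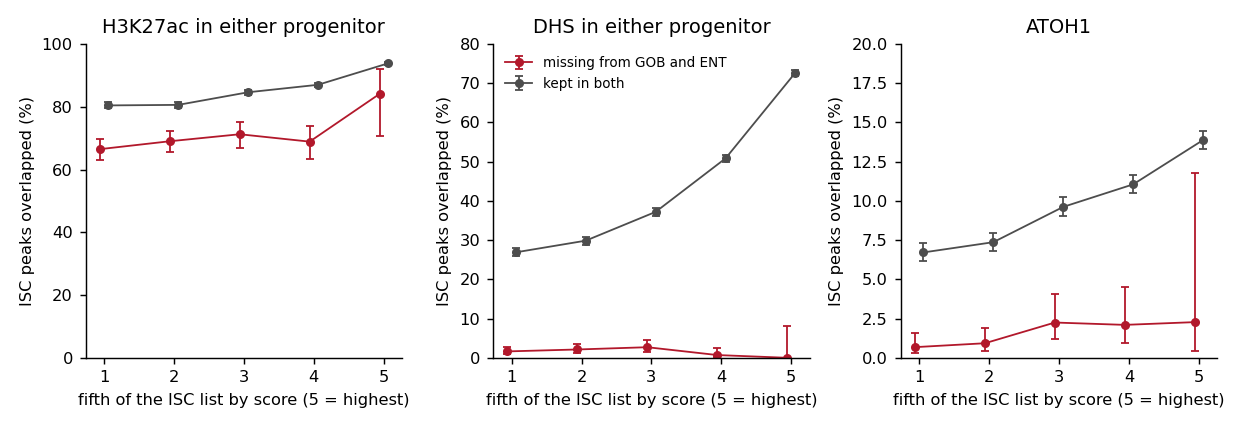
Percentage of ISC peaks overlapped by H3K27ac in either progenitor (left), DHS in either progenitor (middle) and ATOH1 (right) in each of 5 bins of the ISC list by score, for crypt-only regions and for peaks kept in GOB and ENT, with Wilson 95% intervals over sites. DHS at kept peaks climbs to 72.7% in bin 5 while crypt-only regions reach at most 2.70%.

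Most crypt-only regions lay near an H3K4me2 peak of GOB or ENT. The median distance to the nearest such peak was 277 bp, while that to the nearest ISC peak kept in both mature lists was 1901 bp. The latter set, with 49428 peaks, is smaller than the list of GOB (86922) or ENT (88489), so these distances are not directly comparable. A mature peak lay within 100 bp of 574 regions (25.3% [23.6 to 27.2]) and within 1 kb of 1635 (72.1% [70.2 to 73.9]). With a 1 kb limit, a split by side chosen after values were seen, 529 regions (23.3%) had mature peaks on both sides, 1106 (48.8%) on 1 side and 632 (27.9% [26.1 to 29.8]) on neither. The nearest ENT peak was closer, at a median of 345 bp, than the nearest GOB peak, at 696 bp. Peaks kept in ENT alone showed a like closeness to GOB peaks (median 357 bp), as did those kept in GOB alone to ENT peaks (median 271.5 bp).

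**Figure D4:**
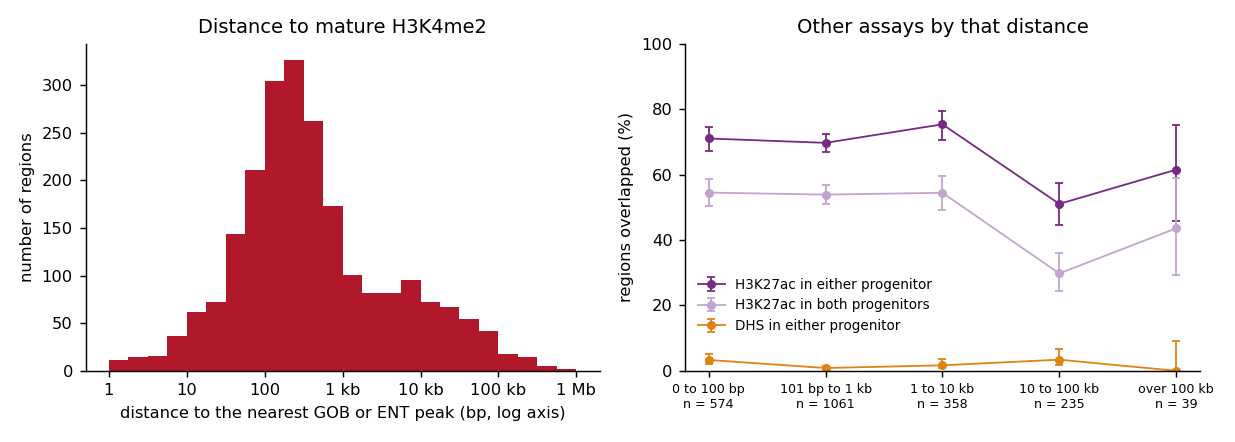
Left, number of crypt-only regions by distance to the nearest GOB or ENT H3K4me2 peak (bp, log axis; 6 adjoining regions are drawn at 1 bp). Right, percentage of crypt-only regions overlapped by H3K27ac in either or both progenitors and by DHS in either, by the same distance, with Wilson 95% intervals over sites; most regions lie within 1 kb of a mature peak and DHS reaches at most 3.404% at any distance.

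Coverage around the region centres showed the same arrangement. At the centre no GOB or ENT peak was present, by the rule. At 500 bp to either side GOB peaks covered 18.0% and 16.7% of crypt-only sites and ENT peaks 24.8% and 25.5%. Around peaks kept in both, which mature peaks overlap by definition, these values were higher. They were 66.9% and 63.0% for GOB and 70.0% and 65.6% for ENT. DHS coverage of crypt-only sites was low at the centre, 0.176% in Sec-Pro and 0.485% in Ent-Pro. At 1500 bp to either side it was 5.82% and 5.25% for Sec-Pro DHS and 6.66% and 5.69% for those of Ent-Pro. At the 632 crypt-only regions with no mature peak within 1 kb, DHS coverage was at most 0.316% for Sec-Pro and 0.791% for Ent-Pro. These values hold for the centre and for 500 and 1500 bp to either side, and are too low to show whether a dip was present. Around peaks kept in both, DHS lay closer, and coverage was also lower at the centre than at 500 bp to either side. It was 13.2% in Sec-Pro and 15.3% in Ent-Pro at the centre and 20.2% and 22.2% at 500 bp toward lower coordinates. H3K27ac coverage at the centre of crypt-only regions was 44.9% in Sec-Pro and 54.3% in Ent-Pro and was lower at 500 bp to either side, against 71.6% and 78.7% at the centre of peaks kept in both.

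**Figure D5:**
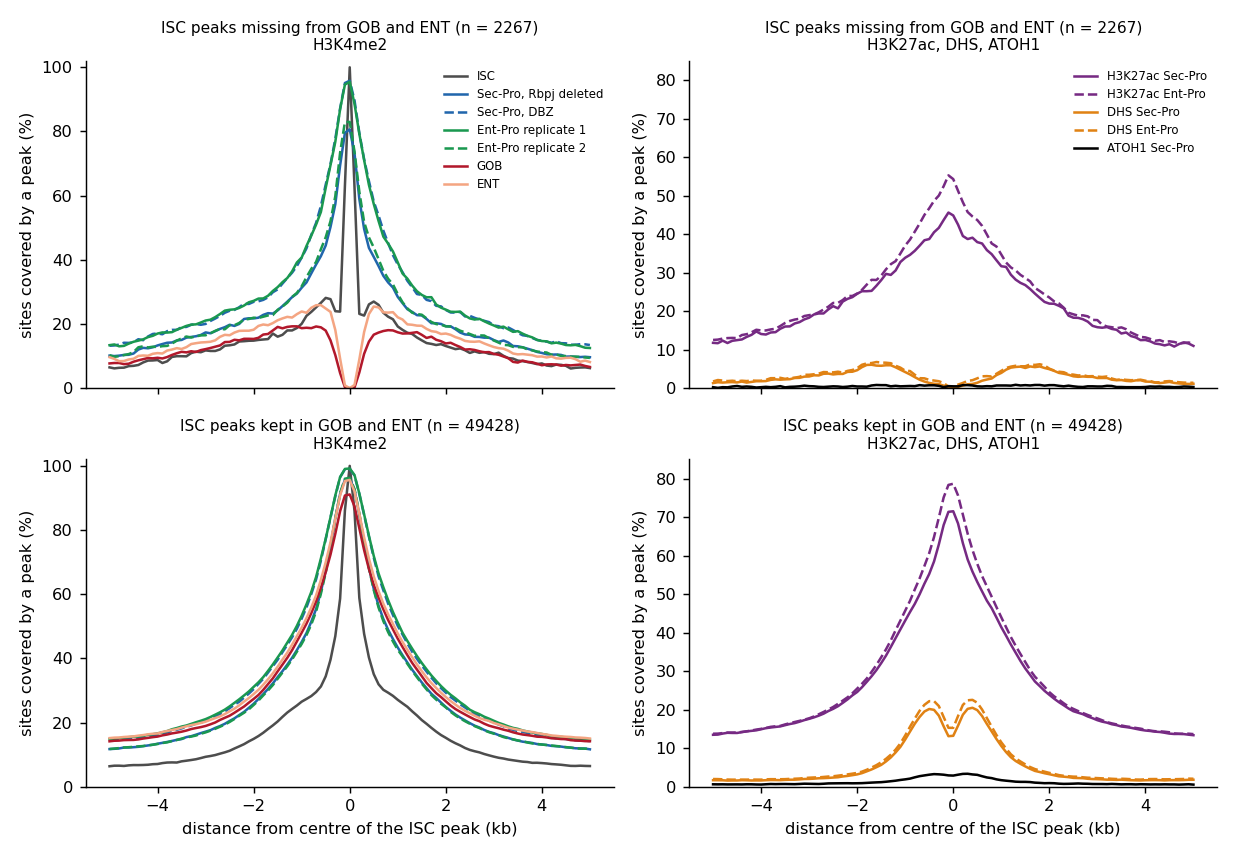
Percentage of sites covered by a peak of each list at distances of up to 5 kb from the centre of the ISC peak, for crypt-only regions (top) and peaks kept in GOB and ENT (bottom), with H3K4me2 lists on the left and H3K27ac, DHS and ATOH1 on the right. Over all crypt-only regions GOB and ENT peaks and DHS dip at the centre, while progenitor H3K4me2 and H3K27ac are highest there or within 100 bp. DHS coverage of peaks kept in both is also lower at the centre than at 500 bp to either side.

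In progenitors many crypt-only regions were part of a longer marked stretch. The shares below were not computed for the other classes, so whether they set crypt-only regions apart was not tested. The progenitor peak over the region also reached a GOB or ENT peak at 53.9% [51.8 to 55.9] of crypt-only regions for Rbpj-deleted and 62.2% [60.2 to 64.2] for DBZ-treated Sec-Pro, and at 64.4% [62.4 to 66.3] and 55.6% [53.6 to 57.7] for Ent-Pro replicates 1 and 2. It did so in all 4 lists at 1043 regions (46.0% [44.0 to 48.1]) and in no list at 701 (30.9% [29.1 to 32.9]). At the 1043 regions a progenitor peak thus spanned a stretch called in mature cells and a stretch that was not. In some lists but not all it did so at the remaining 523. DHS in either progenitor was rare in the 3 sets, at 1.25% [0.730 to 2.12] of the 1043, 2.49% [1.46 to 4.21] of the 523 and 2.28% [1.41 to 3.68] of the 701. H3K27ac in either was found at 66.3% [63.4 to 69.2] of the 1043, 75.5% [71.7 to 79.0] of the 523 and 67.8% [64.2 to 71.1] of the 701.

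The 632 regions with no mature peak within 1 kb were somewhat wider and of higher rank than the rest, with a median width of 280.5 bp and a median ISC percentile of 36.2. Sec-Pro H3K27ac overlapped 49.8% [46.0 to 53.7] and Ent-Pro H3K27ac 60.3% [56.4 to 64.0] of them, against 69.4% [65.3 to 73.2] and 73.0% [69.0 to 76.6] of the 529 regions with mature peaks on both sides. Their DHS share, 2.22% [1.32 to 3.68] in either progenitor, was again low. More than 10 kb from any mature peak lay 274 regions. These had H3K27ac in both progenitors at 31.8% [26.5 to 37.5] and a DHS in either at 2.92% [1.49 to 5.65], and their median distance to a DHS was 35505.5 bp. H3K27ac in both progenitors was found at 64.3% [60.1 to 68.2] of the regions with mature peaks on both sides, at 49.3% [46.3 to 52.2] of those with one on 1 side and at 44.6% [40.8 to 48.5] of those with none. By distance to the nearest mature peak it was 54.5% [50.4 to 58.6] up to 100 bp, 53.9% [50.9 to 56.9] up to 1 kb, 54.5% [49.3 to 59.6] from 1 to 10 kb, 29.8% [24.3 to 35.9] from 10 to 100 kb and 43.6% [29.3 to 59.0] of the 39 regions farther away. The share thus did not decline up to 10 kb.

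Among regions in the upper 50% of the ISC list by score, the most remote lay on chromosome 11 at 24957102 to 24957358, 582796 bp from the nearest ENT peak and 583065 bp from the nearest GOB peak. It carried no H3K27ac and no DHS, like the next, on chromosome 16 at 9678557 to 9679239 (ISC percentile 86.2), which lay 409546 bp from ENT and 409578 bp from GOB peaks. The regions on chromosome 11 at 90866752 to 90866984 and at 9889957 to 9890410 on chromosome 12 had H3K27ac in both progenitors, at Sec-Pro percentiles of 50.8 and 44.3 and Ent-Pro percentiles of 54.2 and 63.8. The last, on chromosome 8 at 99388662 to 99388876, was 207801 bp from ENT and 912566 bp from GOB peaks, without H3K27ac, and its nearest DHS was 3379 bp away.

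Crypt-only regions also lay near each other in places. Another crypt-only region was within 1 kb of 405 (17.9%) and within 50 kb of 929 (41.0%). Like counts were not made for other ISC peaks, so whether crypt-only regions lie closer together than those was not tested. The densest window of 50 kb, on chromosome 7 from 97277323 to 97297301, held 9 of them among 25 ISC peaks. Of the 9, 7 carried H3K27ac in either progenitor, none a DHS, and 8 had a mature peak within 1 kb. A window on chromosome 12 from 33620280 to 33646795 held 8 among 22 ISC peaks, and one on chromosome 14 from 80384608 to 80409944 held 8 among 20, each with H3K27ac at 7 regions and DHS at 0. The chromosome 14 window had the highest ranks of the 3, with a median ISC percentile of 71.5, and contained the widest crypt-only region, 2167 bp from 80403947 to 80406113. The other wide regions were 2013 bp on chromosome 17 from 14420251 to 14422263 and 1400 bp on chromosome 19 from 53218685 to 53220084. All 3 wide regions had an ENT peak within 1 kb and no DHS. H3K27ac was found in both progenitors at the first pair and in Ent-Pro alone at the last. Over all crypt-only regions, 72.1% had a GOB or ENT peak within 1 kb, 68.9% H3K27ac in either progenitor and 1.85% a DHS in either.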

How the data were processed

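Deposited lists of peaks were analysed for 12 of 15 samples; 3 libraries of input DNA were not used here. The tools named per the submitters' processing notes are Bowtie 0.12.7, MACS2 and CASAVA 1.7, with mm9 as the build; neither settings nor the part input DNA played in peak calling are stated. Each deposited file has 5 columns without a header (chromosome, 0-based start, end, name and the authors' score, whose meaning is not stated), 1 list per library. Depth is unknown.

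Overlaps, covered bases and distances were computed with NumPy 2.4.6, intervals of medians with SciPy 1.17.1 and plots with matplotlib 3.10.9, all under Python 3.11.15. Where several peaks of a list overlapped a region, the one with the highest score was used. Of 400 regions planted in simulated lists over the ISC positions, 400 were found, and bedtools 2.31.1 gave the same 2267 members. The simulated peaks were ISC peaks with slightly moved edges, so their recovery checks the counting code and not the calls in the real lists. Regions were named by fixed rules: the 8 of highest minimum percentile over the 5 crypt lists, the 5 strongest each for H3K27ac in both progenitors, DHS in both and ATOH1, the 3 widest, the 3 densest windows of 50 kb, the 5 farthest from mature peaks in the upper 50% by score, and 3 on each side of the boundary. Members, classes and rules were chosen with earlier results of these data known. No p-value was computed, since sites are not replicates. Nothing says whether Ent-Pro replicates came from separate animals, and the Sec-Pro H3K4me2 libraries differ in preparation. Planned sequence and gene annotation steps needed an mm9 genome and were not run, nor was the check of cell labels against marker genes.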

Additional observations from a re-analysis of the deposited data

How the results depend on the processing

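H3K27ac, DHS and ATOH1 were lower at crypt-only regions than at peaks kept in both mature lists under each alternative run; of 170 values 71 stayed within their interval or within 1.5 times the count, and 99 moved. No paired analysis was possible because Ent-Pro libraries alone carry replicate numbers and no model was fitted.

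Leaving out 1 progenitor library at a time gave 2290 to 3096 regions, H3K27ac shares of 51.6% to 56.2% (Sec-Pro) and 59.9% to 64.5% (Ent-Pro), DHS shares of 0.711% to 0.933% and 1.76% to 1.86%, ATOH1 shares of 1.20% to 1.27%, median widths of 225 to 233 bp and median percentiles of 30.7 to 33.2. Differences to peaks kept in both were -21.0 to -17.5 points (H3K27ac), -45.7 to -44.9 (DHS) and -9.12 to -9.08 (ATOH1).

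With 50% of the peak to be covered, H3K27ac shares were 48.8% (Sec-Pro) and 57.5% (Ent-Pro), DHS shares 0.186% and 0.372%, the ATOH1 share 0%, and differences -14.6 (DHS) and -1.90 (ATOH1). The 632 regions with no mature peak within 1 kb had H3K27ac shares of 49.8% and 60.3%, a Sec-Pro DHS share of 0.475%, an ATOH1 share of 1.90%, a median width of 280.5 bp and percentile of 36.2, and differences of -21.0 (H3K27ac) and -8.48 (ATOH1). With mature coverage under 50% as missing, 4695 regions had H3K27ac shares of 61.3% and 69.3%, DHS shares of 4.20% and 5.62%, an ATOH1 share of 2.002%, a median width of 278 bp and percentile of 41.6, and differences of -13.9 (H3K27ac) and -45.0 (DHS). The 593 regions in the upper 50% of the ISC list had an Ent-Pro H3K27ac share of 66.4%, an ATOH1 share of 2.02%, a median width of 330 bp and percentile of 61.8, and differences of -56.6 (DHS) and -10.0 (ATOH1). Lists of equal length gave an Ent-Pro H3K27ac share of 67.02%, DHS shares of 1.44% and 2.42%, an ATOH1 share of 1.963%, a median width of 260 bp and percentile of 36.9, and a DHS difference of -47.2. The upper 50% of the mature lists gave 5699 regions, H3K27ac shares of 59.5% and 68.2%, DHS shares of 2.33% and 4.07%, an ATOH1 share of 2.68%, a median width of 262 bp and percentile of 35.6, and differences of -47.6 (DHS) and -8.16 (ATOH1). With the 2 progenitor lists whose shortest peak is 146 bp, as in the ISC list, 5324 regions had H3K27ac shares of 43.9% and 54.1%, a median width of 215 bp and percentile of 28.3, and differences of -26.6 (H3K27ac) and -44.0 (DHS). Counting the other assays within 500 bp gave H3K27ac shares of 73.8% and 80.4%, DHS shares of 5.69% and 9.09%, an ATOH1 share of 4.23%, and differences of -7.05, -52.7 and -15.5 for the 3 assays.

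By bins of score, low to high, the H3K27ac differences that moved were -13.9, -11.6, -13.4 and, in the highest, -9.72, those of DHS -25.3, -27.7, -34.5, -50.1 and -72.7, and those of ATOH1 -6.04, -6.44, -7.37 and, in the highest, -11.6. By bins of width they were -13.6, -11.6, -11.2 and, in the widest, -8.94 for H3K27ac, -25.2, -28.9, -36.6, -50.7 and -69.2 for DHS, and -5.09, -6.05, -6.18, -7.91 and -12.6 for ATOH1. The cause of these moves was not tested. Depth is unknown, so a missing peak limits no level.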
